A study of Drosophila melanogaster with 18 samples.

Results

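The nuclear genes for subunits of the mitochondrial respiratory chain and ATP synthase were followed in Drosophila S2 cells. Members were all nuclear genes whose symbol begins with ND-, UQCR-, COX or ATPsyn, which gave 80 of the 17609 genes in the count tables. Of these, 59 are standard subunits. By the start of the symbol alone, 34 of them were placed in complex I, 6 in complex III, 8 in complex IV and 11 in ATP synthase. The other 21 are testis-type paralogs, named for another subunit and ending in L or in L and a digit. Of these paralogs, 6 are in complex I, 3 in complex III, 8 in complex IV and 4 in ATP synthase.

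The series measured polyA RNA in S2 cells, an embryonic Drosophila line with macrophage-like traits, and in 3 derived lines carrying an inducible transgene for a transcription factor. CuSO4 switched the transgene on, and cells were harvested 48 h later. Zld_1000 and Zld_0 are the induced and untreated lines for Zelda (Zld), Grh_100 and Grh_0 those for Grainy head (Grh), and Twi_40 is the induced line for Twist (Twi). WT_0, WT_40, WT_100 and WT_1000 are wild type S2 cells with 0, 40, 100 and 1000 µM CuSO4, and each of the 9 groups has 2 libraries. The label of Twi_40 gives 40 µM, whereas those of Zld_1000 and Grh_100 print 1000 and 100 mM, so these were matched to wild type by the printed number, and the unit is not settled here. The promoter of the transgenes and whether a line is 1 clone are not given in the sources used here. The labels do not say whether replicates were separate cultures, so each p measures the spread between these libraries, which may be technical.

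Complex I (the ND genes) takes electrons from NADH and passes them to ubiquinone, complex III (the UQCR genes) hands them on to cytochrome c, and complex IV (the COX genes), whose catalytic core holds copper, delivers them to oxygen. The proton gradient built by these complexes drives ATP synthase (the ATPsyn genes). Each of the 4 complexes combines subunits from the nucleus with a few from the mitochondrial genome, and Drosophila carries paralogs of several nuclear subunits that are known for expression in the testis.

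Libraries held 10459648 to 28575923 counts, and 3 counts in a library, taken as the floor of detection for counting error only, equal 0.105 to 0.287 CPM. The induced factor was abundant in its own line, with 89132 and 70858 counts of zld in Zld_1000 against 18 and 26 in WT_1000, 20519 and 14321 counts of grh in Grh_100 against 4 and 7 in WT_100, and 30701 and 45409 counts of twi in Twi_40 against 7 in each WT_40 library. Untreated lines also held some of it, with 2240 and 5166 counts of zld in Zld_0 and 715 and 762 of grh in Grh_0, whereas the other lines had 3 to 306 counts of zld, 2 to 21 of grh and 0 to 41 of twi. Replicates differed most in WT_40, where the chi-square of the gene counts divided by its degrees of freedom was 41.2 (1 would be counting noise alone), followed by Twi_40 at 20.4 and Zld_0 at 15.7, and least in WT_1000 at 2.09. All 10 marker genes of plasmatocytes, the blood cells that S2 cells resemble, were detected in the series. In such bulk samples, fewer cells of a type and less RNA per cell cannot be told apart.

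Levels are given as RPKM on library sizes scaled by TMM, that is, counts per kilobase of the deposited gene length and library size (as in CPM), so that genes can be compared per length. Changes are fitted log2 ratios ± SE from edgeR's quasi-likelihood test, called at an adjusted p under 0.05 over all genes tested in that comparison. With 2 libraries a group, the spread was estimated over all groups of a table.

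Of the 59 standard subunits, 56 had at least 100 counts in every library and were tested in every comparison. The other 3 had at most 3 counts in any library and were not tested. UQCR-14, a complex III subunit (dm6 chrX:16286288-16286988), had 0 counts in all 18 libraries, and all of its exon bases lie within exons of CG32576 on the opposite strand, which had 102 to 420 counts. ND-MNLL, an accessory complex I subunit (dm6 chrX:7893053-7893798), also had 0 counts. It shares all exon bases with CG45089 on the same strand, which had 0 counts in all 18 libraries. The 0 counts of UQCR-14 and ND-MNLL therefore cannot be read as absence of expression. ND-B8, another accessory complex I subunit (dm6 chr2L:4454626-4455207), had 20 counts over the 18 libraries and at most 3 in any, although only 15.4% of its exon bases are shared. The 13 mRNA genes of the mitochondrial genome that the tables list had 0 counts in every library, so their share in these complexes is not described.

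ATP synthase subunits were the most abundant. ATPsynbeta, a catalytic subunit of the F1 head, averaged 792 RPKM over the 18 libraries, ATPsyngamma, the rotating stalk of F1, 614 RPKM, and ATPsynC, which forms the membrane ring, 405 RPKM. The lowest in that complex were ATPsyndelta at 21.8 RPKM, with 35.6% of its exon bases shared with CG2962, and ATPsynG at 119 RPKM. In complex IV, COX5A and COX6B were highest, at 332 and 178 RPKM, and COX5B and COX7C lowest, at 90.03 and 104 RPKM. In complex III, the core proteins UQCR-C1 and UQCR-C2 averaged 196 and 151 RPKM, above UQCR-Q at 60.0 RPKM and UQCR-11 at 53.1 RPKM. In complex I, ND-ACP, the mitochondrial acyl carrier protein, stood at 220 RPKM and ND-MLRQ at 130 RPKM. The measured minimum of that complex was 13.0 RPKM for ND-MWFE, with 34.95% of its exon bases shared with TppII and Nrk, followed by 22.5 RPKM for ND-ASHI.

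Each expressed subunit kept a narrow range. The highest library exceeded the lowest by 1.28-fold for ND-ACP and by 2.73-fold for ND-AGGG, and the other 54 lay between these. The sum over all standard subunits was 6804 and 7152 RPKM in Zld_1000, 6943 and 7106 RPKM in Zld_0, 7464 and 7146 RPKM in Grh_100, 8138 and 7910 RPKM in Grh_0, and 5790 and 4809 RPKM in Twi_40. In wild type cells it was 7980 and 7852 RPKM at 0, 6547 and 5593 RPKM at 40, 5895 and 6093 RPKM at 100, and 7902 and 7853 RPKM at 1000 µM. The libraries of WT_40, WT_100 and Twi_40 all lay below those of WT_0 and WT_1000, and both WT_1000 sums lay between the 2 sums of WT_0.

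**Figure D1:**
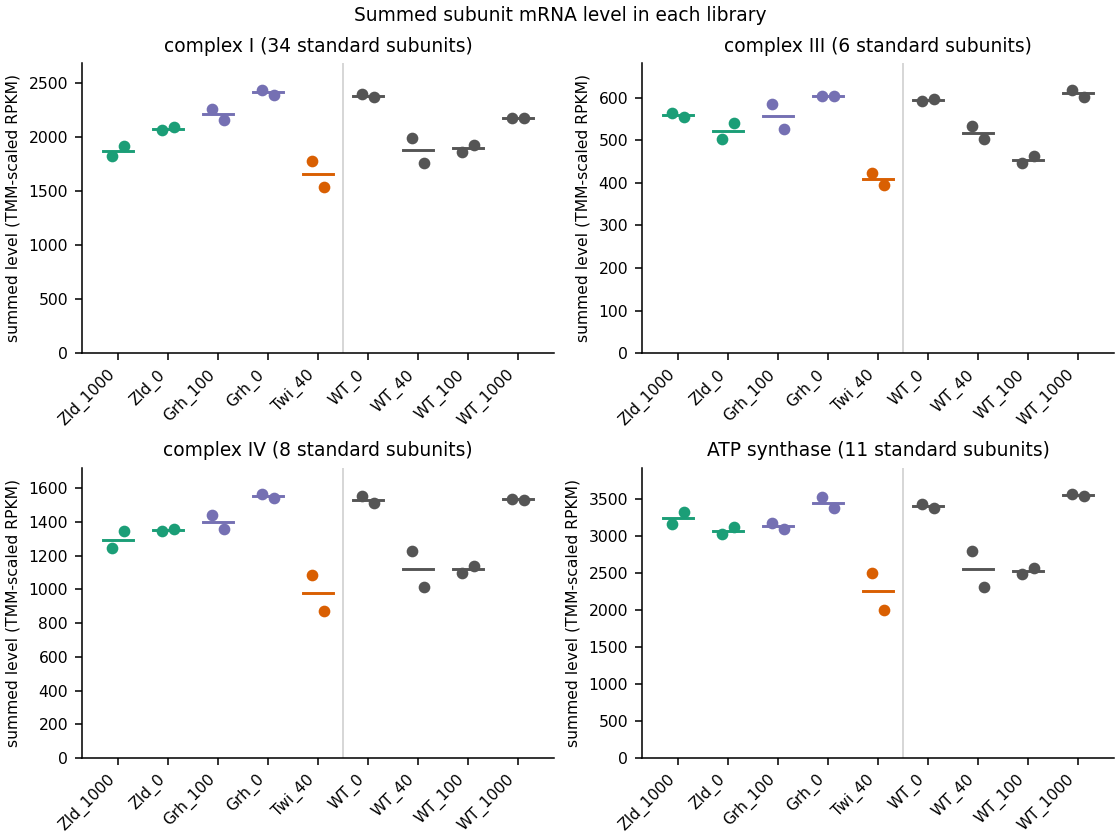
Summed level of the standard subunits of each complex (y axis, TMM-scaled RPKM) in each library (points) of the 9 groups (x axis), with the line at the mean of 2 libraries. In each panel the WT_40, WT_100 and Twi_40 libraries lie below those of WT_0 and WT_1000.

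The wild type groups compare doses of CuSO4 without a transgene. Dose and any difference between cultures or batches cannot be told apart, and the sums above did not follow the order of the doses. At 100 µM, most subunits fell: 45 of 56 standard subunits were lower in WT_100 than in WT_0 and 1 was higher, where 52.5% of all 8788 genes tested were called, 27% lower and 25.4% higher. Their median log2 change was -0.44, against -0.02 over all genes tested. All 11 ATP synthase subunits fell, as did 4 of 5 in complex III, 6 of 8 in complex IV and 24 of 32 in complex I. The largest falls were in UQCR-11, a small complex III subunit, in COX4, an early-assembling complex IV subunit, in ATPsynB, part of the peripheral stalk, in ATPsyndelta, part of the central stalk, and in COX5A.

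COX4 (dm6 chr2L:19958713-19960065) measured 113 and 112 RPKM in WT_100 libraries, against 183 and 193 RPKM in WT_0. Both WT_100 values lay well under both WT_0 values. The fitted change was -0.76 ± 0.05 (edgeR adjusted p = 2.01e-09, n = 2 libraries each). UQCR-11 (dm6 chr3L:25120709-25126171) measured 34.6 and 32.97 RPKM in WT_100, against 58.2 and 56.6 RPKM in WT_0, a change of -0.78 ± 0.08 (edgeR adjusted p = 1.24e-06). COX5A (dm6 chr3R:11819359-11820299), a matrix-side subunit of complex IV, measured 240 and 248 RPKM in WT_100, against 395 and 394 RPKM in WT_0, a change of -0.71 ± 0.06 (edgeR adjusted p = 1.91e-07). For UQCR-11 and COX5A, too, the groups did not overlap.

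The electron-carrying core of complex I was uneven. ND-30 fell by 0.67 ± 0.09, ND-75 by 0.51 ± 0.07, ND-20 by 0.50 ± 0.05, ND-49 by 0.33 ± 0.06 and ND-24 by 0.32 ± 0.06 on the log2 scale, all with an edgeR adjusted p of at most 0.00011. ND-51, the flavin-binding subunit, and ND-23, an iron-sulfur subunit, did not pass the test, at -0.10 ± 0.05 and 0.02 ± 0.05. ND-15 was the single standard subunit called higher, at 64.6 and 65.3 RPKM in WT_100 against 58.7 and 56.3 RPKM in WT_0 (log2 change 0.16 ± 0.06, edgeR adjusted p = 0.0347). The call was lost with the replicate block, under DESeq2, in one fit on all 18 libraries and with any 1 of the 4 libraries left out, where the change was 0.12 to 0.19. Of its exon bases 15.9% are shared with Pus10 and CG3436, and reads there cannot be told apart. ATPsynbeta changed least within its complex, at -0.25 ± 0.07, and UQCR-C1 (-0.13 ± 0.06), COX5B (-0.13 ± 0.07) and COX8 (-0.10) did not pass. Across the 56 subunits the change had a Spearman rho of -0.17 with the mean level and -0.04 with exon length, a description over genes that share the same libraries.

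At 40 µM, 31 of 56 standard subunits were lower in WT_40 than in WT_0 and none higher, where 19.7% of all genes tested were lower and 20.8% higher, with a median of -0.42 against -0.005 over all genes. The largest falls were in ATPsynD (-0.69 ± 0.12), ND-B17 (-0.69 ± 0.12), ND-39 (-0.66 ± 0.08), ATPsynF (-0.66 ± 0.14) and ATPsynB (-0.65 ± 0.14). ND-39 measured 101 and 95.4 RPKM in WT_40, against 151 and 161 RPKM in WT_0, with no overlap (edgeR adjusted p = 0.00134). UQCR-11, the leading fall at 100 µM, stood at 62.2 and 63.7 RPKM in WT_40 and at 58.2 and 56.6 RPKM in WT_0, and did not pass the test (0.14). DESeq2 called 35 members, no filter gave 41, one fit on all 18 libraries 42 and the replicate block 44, against 32. This count rests on both untreated libraries: members called numbered 7 without replicate 1 of WT_0 and 5 without replicate 2, against 32 with both.

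At 1000 µM few subunits differed: 2 standard subunits were higher in WT_1000 than in WT_0 and 6 lower, where 29.2% of all genes tested were called. ATPsynbeta measured 899 and 924 RPKM in WT_1000, against 818 and 757 RPKM in WT_0 (0.23 ± 0.07, edgeR adjusted p = 0.0354), and UQCR-C1 222 and 217 RPKM in WT_1000, against 187 and 199 RPKM in WT_0 (0.21 ± 0.07, edgeR adjusted p = 0.0332). Neither was called with any 1 of the 4 libraries left out or in one fit on all 18 libraries. The 6 that fell were all in complex I, led by ND-B16.6 (-0.38 ± 0.07) and ND-20 (-0.33 ± 0.07). The count of members called was 3 or 1 without replicate 1 or 2 of WT_1000 and 2 without either WT_0 library, against 8. DESeq2 called 4, one fit on all 18 libraries 3, and with library sizes alone as the scaling 1 was higher and 7 lower.

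The comparison of the higher with the middle dose was added after the data were seen. In a fit on all 18 libraries, 32 standard subunits were higher in WT_1000 than in WT_100 and 1 was lower, where 41.6% of all 9521 genes tested were called, 18.7% higher and 22.9% lower. All 11 ATP synthase subunits and all 5 measured complex III subunits were among those higher, with 6 of 8 in complex IV and 10 of 32 in complex I. COX4 measured 200 and 191 RPKM in WT_1000, against 113 and 112 RPKM in WT_100 (0.80 ± 0.08, edgeR adjusted p = 5.6e-07). ND-15 was the one lower, at 51.5 and 55.5 RPKM in WT_1000 against 64.6 and 65.3 RPKM in WT_100 (-0.28 ± 0.08, edgeR adjusted p = 0.0089), a call lost without replicate 1 of WT_1000 or replicate 2 of WT_100 (-0.23 and -0.27). The wild type comparisons share the WT_0 or WT_100 libraries, so their values are given side by side and no overlap was computed.

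**Figure D2:**
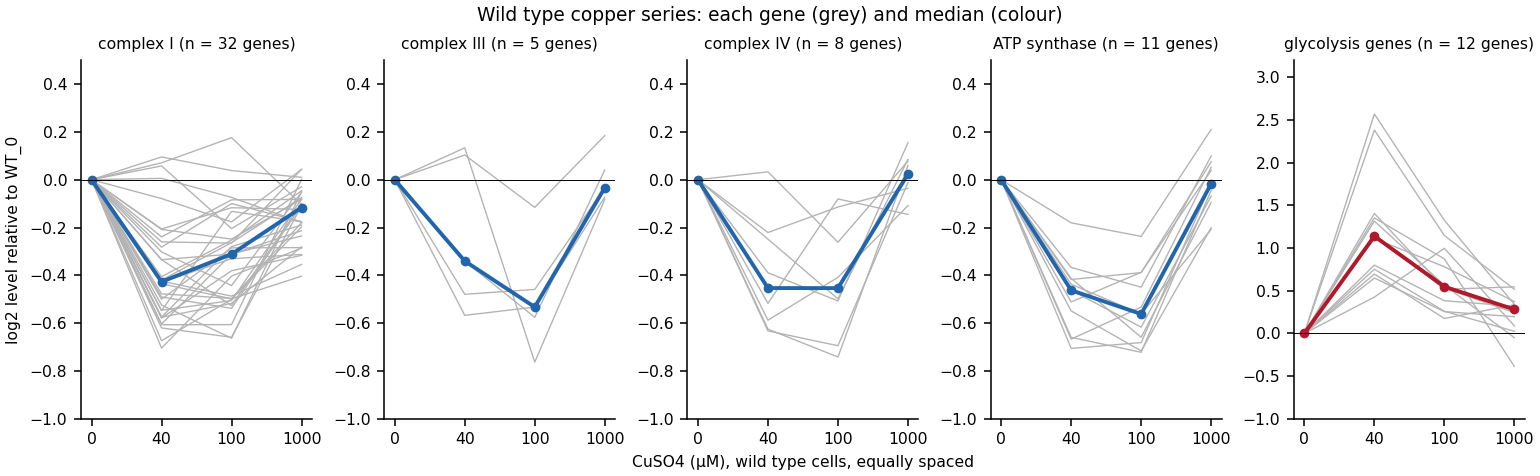
Log2 level relative to the mean of WT_0 (y axis) for each measured standard subunit by complex and for 12 glycolysis genes (grey lines, mean of 2 libraries) at 0, 40, 100 and 1000 µM CuSO4 in wild type cells (x axis), with the median in colour. Medians of all 4 complexes were lowest at 40 or 100 µM and near 0 at 1000 µM for complexes III and IV and ATP synthase, and the glycolysis median was above 0 at each dose.

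Of the 8 genes of complexes III and IV and ATP synthase listed under other symbols, 6 fell at 100 µM, 1 rose and 1 did not pass. The complex IV subunits levy and cype changed by -0.73 ± 0.06 and -0.55 ± 0.07, the ATP synthase subunits blw (alpha) and sun (epsilon) by -0.57 ± 0.06 and -0.30 ± 0.08, and the Rieske iron-sulfur protein RFeSP and Cyt-c1 of complex III by -0.47 ± 0.05 and -0.15 ± 0.05. The paralog Cyt-c1L rose (1.25 ± 0.29), and ox, another complex III subunit, did not pass (0.03). In complex II, SdhA, SdhC and SdhD fell and SdhB did not pass. Of 14 genes for the TCA cycle and pyruvate dehydrogenase, 9 fell and none rose, led by Mdh2, malate dehydrogenase (-0.84 ± 0.05). The electron carrier Cyt-c-p went the other way, to 484 and 495 RPKM in WT_100 against 356 and 358 RPKM in WT_0 (0.44 ± 0.05, edgeR adjusted p = 1.25e-06).

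All 12 glycolysis genes rose at 100 µM (median 0.53), 11 of 12 at 40 µM (median 1.15) and 5 of 12 at 1000 µM (median 0.30). Their summed level was 1500 to 1613 RPKM in WT_0, 3024 to 4125 RPKM in WT_40, 2234 to 2359 RPKM in WT_100 and 1858 to 1931 RPKM in WT_1000. Pfk, phosphofructokinase, measured 26.7 and 27.2 RPKM in WT_100 against 10.4 and 11.2 RPKM in WT_0 (1.31 ± 0.07). Of 7 genes for copper delivery and assembly of complex IV, Scox and Cox17 fell at 100 µM (-0.35 ± 0.06 and -0.44 ± 0.14), a share near that of all genes lower, and the list's median was -0.08. The call of Cox17 was lost without either WT_100 library or replicate 2 of WT_0. Plasmatocyte markers moved in both directions there, 3 of 10 up and 6 down, with a median of -0.74, and summed to 324 to 330 RPKM in WT_100 against 620 to 651 RPKM in WT_0. Their part in the result was not tested.

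Induced Grh cells were set against wild type with the same printed copper number. Here 45 of 56 standard subunits were higher in Grh_100 than in WT_100 and 1 was lower, where 60.3% of all 8788 genes tested were called, 32.5% higher and 27.8% lower. The median was 0.32, against 0.04 over all genes. All 11 ATP synthase and all 5 complex III subunits were higher, with 6 of 8 in complex IV and 23 of 32 in complex I. The leading members were ND-PDSW, an accessory complex I subunit (0.72 ± 0.09), COX5A (0.69 ± 0.06), UQCR-11 (0.69 ± 0.08), ND-30 (0.67 ± 0.09) and ATPsynB (0.63 ± 0.06). Among genes with other symbols, blw (0.77), levy, cype and all 4 measured complex II subunits were higher, and sun did not pass. In complex III, 1 of 4 such genes was higher and 1 lower, and Cyt-c-p was lower (-0.64).

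COX5A measured 411 and 345 RPKM in Grh_100, against 240 and 248 RPKM in WT_100 (edgeR adjusted p = 1.47e-07). ND-30 measured 106 and 87.0 RPKM in Grh_100, against 58.8 and 67.8 RPKM in WT_100 (edgeR adjusted p = 3.08e-05). ATPsyngamma measured 696 and 636 RPKM in Grh_100, against 527 and 547 RPKM in WT_100 (0.37 ± 0.06, edgeR adjusted p = 2.25e-05). In all 3 the groups were apart, and replicate 1 of Grh_100 was the higher of its pair. ND-15 was again opposite, at 51.4 and 55.7 RPKM in Grh_100 against 64.6 and 65.3 RPKM in WT_100 (-0.22 ± 0.06), a call lost without replicate 1 of Grh_100 or replicate 2 of WT_100 (-0.16 and -0.20). Of the plasmatocyte markers, 3 of 10 were higher and 5 lower, and their sum was 460 to 469 RPKM in Grh_100, against 324 to 330 RPKM in WT_100. Their part in the result was not tested.

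The scaling bears on the size of this difference. Grh_100 libraries held 24.4% and 23.1% of their counts on 92 cytosolic ribosomal protein genes, against 16.1% and 16.9% in WT_100. With library sizes alone in place of TMM, the median over all genes shifted to -0.12, and 31 members were higher and 6 lower, against 45 and 2 with TMM. ND-51 (0.12 ± 0.05, edgeR adjusted p = 0.048) turned to -0.04 under that scaling, and its call was also lost under DESeq2, with its size factors in edgeR, with no filter and with the replicate block.

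The wild type control at 100 µM was itself low. With WT_0 as the control, chosen after the data were seen, 0 of 58 members were higher in Grh_100 and 10 were lower. COX5A then differed by -0.02 and ND-30 by -0.0007. One fit on all 18 libraries, against WT_100, called 31 members, against 47.

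Without copper the Grh line hardly differed from wild type in the members. COX7C was the only member called, at 117 and 120 RPKM in Grh_0 against 110 and 100 RPKM in WT_0 (0.16 ± 0.06, edgeR adjusted p = 0.0472), where 23.7% of all genes tested were called. Outside the members, blw was higher, at 543 and 514 RPKM in Grh_0 against 396 and 424 RPKM in WT_0 (0.35). Cyt-c-p (0.36) and 2 of 4 measured complex II subunits were also called higher, and no gene of complexes III and IV with another symbol was called. With library sizes alone, 13 members were lower and none higher, and the median over all genes shifted to -0.10. DESeq2 called no member there, and 4 passed an unadjusted p under 0.05 in edgeR. Between Grh_100 and Grh_0, 8 standard subunits were lower and none higher, where 12% of all genes tested were lower and 16.5% higher. They were 4 ATP synthase subunits (ATPsynD, ATPsynE, ATPsynF and ATPsynG, -0.17 to -0.21), ND-MWFE (-0.36 ± 0.12), ND-B14.5B (-0.24 ± 0.07), ND-ACP (-0.17) and COX6B (-0.17 ± 0.06). DESeq2 called 2 members and one fit on all 18 libraries 3. Leaving out single libraries gave 16 (without replicate 1 of Grh_100), 4 (without replicate 2 of Grh_100 or replicate 1 of Grh_0) and 5 (without replicate 2 of Grh_0).

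The test of whether the Grh line and wild type differ in their response to copper takes the log2 change of Grh_100 over Grh_0 minus that of WT_100 over WT_0. Copper also induces Grh in that line, so copper and induction cannot be told apart in it. The difference was positive and called for 37 of 56 standard subunits and negative for 1. Of all genes tested, 43.3% were called, 24.1% positive and 19.2% negative. All 11 ATP synthase subunits were positive, with 4 of 5 in complex III, 6 of 8 in complex IV and 16 of 32 in complex I. The median was 0.35, against 0.06 over all genes. UQCR-11 had the highest value of the 56, 0.85 ± 0.11 (edgeR adjusted p = 2.13e-05), and ND-15 the lowest, -0.29 ± 0.09 (edgeR adjusted p = 0.0126). One fit on all 18 libraries called 18 members, against 38.

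**Figure D3:**
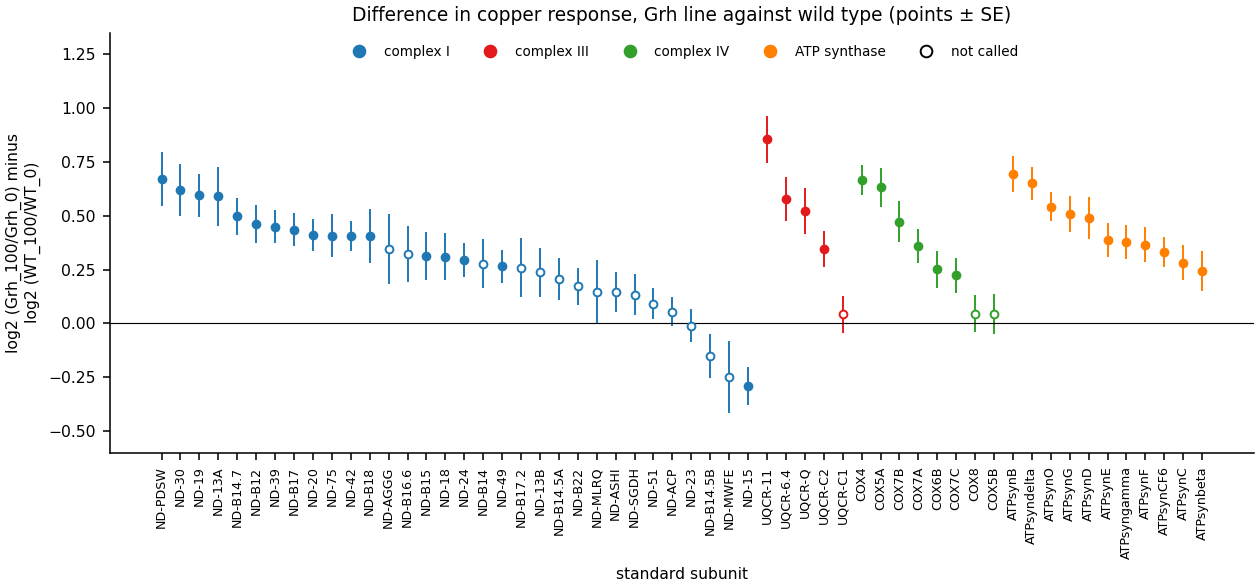
Difference in the log2 copper response between the Grh line and wild type (y axis; points, with bars for the SE) for 56 standard subunits grouped by complex (x axis), with open points not called. All 11 ATP synthase points are positive and called, and ND-15 is the single subunit called below 0.

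Glycolysis genes had the opposite sign in the same test: 11 of 12 were called negative, led by Pfk (-1.55 ± 0.10) and Ald1, an aldolase (-1.50 ± 0.13). Cyt-c-p was also negative, at -0.995 ± 0.07. The summed glycolysis level was 1443 to 1615 RPKM in Grh_100 and 1592 to 1720 RPKM in Grh_0, against 2234 to 2359 RPKM in WT_100 and 1500 to 1613 RPKM in WT_0.

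In the Zld line, subunits were low with and without induction. Of 56 standard subunits 31 were lower in Zld_1000 than in WT_1000 and none higher, where 18.4% of all 8881 genes tested were lower and 20.1% higher, with a median of -0.22 against 0.02 over all genes. Falls were called for 9 of 11 ATP synthase, 1 of 5 complex III, 5 of 8 complex IV and 16 of 32 complex I subunits. The largest were in ND-B14.5A (-0.40 ± 0.09), ATPsynB (-0.39 ± 0.06), ND-PDSW (-0.37 ± 0.09), ND-B17 (-0.35 ± 0.08) and ND-18 (-0.35 ± 0.07).

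ATPsynB measured 129 and 136 RPKM in Zld_1000, against 176 and 175 RPKM in WT_1000 (edgeR adjusted p = 0.000336). COX5A measured 301 and 334 RPKM in Zld_1000, against 391 and 392 RPKM in WT_1000 (-0.28 ± 0.06, edgeR adjusted p = 0.00247). Neither pair of groups overlapped. Some abundant subunits gave other values: ATPsynbeta, at 997 and 1000 RPKM in Zld_1000 against 899 and 924 RPKM in WT_1000, did not pass (0.15 ± 0.07), nor did ATPsynC (-0.02 ± 0.06) or UQCR-C1 (0.02 ± 0.07). The count of members called was 14 or 18 without replicate 1 or 2 of WT_1000, 10 without replicate 1 of Zld_1000 and 16 in one fit on all 18 libraries, against 32.

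Untreated Zld cells were also lower than untreated wild type in 25 of 56 standard subunits, with none higher, where 10.2% of all genes tested were lower and 10.4% higher, and the median was -0.23 against -0.01 over all genes. ND-B17 measured 44.5 and 51.1 RPKM in Zld_0, against 67.7 and 68.8 RPKM in WT_0 (-0.50 ± 0.08, edgeR adjusted p = 0.000817). COX4 measured 135 and 151 RPKM in Zld_0, against 183 and 193 RPKM in WT_0 (-0.38 ± 0.06, edgeR adjusted p = 0.000847). UQCR-C2 (-0.41 ± 0.09) and ND-75 (-0.39 ± 0.07) were also among the 5 largest falls. Members called numbered 10 or 9 without replicate 1 or 2 of WT_0, 16 by DESeq2 and 11 in one fit on all 18 libraries, against 25.

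Between Zld_1000 and Zld_0, 3 standard subunits were higher and 8 lower, where 45.7% of all genes tested were called, 23.8% higher and 21.8% lower. UQCR-C1 (0.33 ± 0.07), ATPsynbeta (0.32 ± 0.07) and COX4 (0.21 ± 0.06) rose. ND-20 fell to 53.7 and 55.6 RPKM in Zld_1000, against 72.1 and 84.8 RPKM in Zld_0 (-0.49 ± 0.07, edgeR adjusted p = 0.00014), and ND-49 fell by 0.37 ± 0.08. Members called numbered 6 without replicate 1 of Zld_1000 and 21 without replicate 1 of Zld_0, against 12 with all.

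In the test of a different copper response in the Zld line, no member was called by edgeR, where 12.5% of all genes tested were, 5.96% positive and 6.54% negative. At an unadjusted p under 0.05 there were 2 members, DESeq2 called 0, and leaving out replicate 1 or 2 of Zld_0 gave 2 or 6. For COX4 the difference was 0.13 ± 0.08 and for ATPsynB -0.01. Copper also induces Zld in this line, so copper and induction cannot be told apart here.

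Of the other genes of these complexes, levy, cype and RFeSP were lower in Zld_1000 than in WT_1000 (-0.26 ± 0.07, -0.33 ± 0.07 and -0.28 ± 0.06), and the call of levy was lost with any 1 of the 4 libraries left out. The other 5, blw (0.01), sun (-0.13), Cyt-c1 (0.02), ox (-0.04) and Cyt-c1L (0.30), did not pass. In the TCA cycle list 6 of 14 fell and 1 rose. Cyt-c-p was again opposite, at 482 and 427 RPKM in Zld_1000 against 369 and 361 RPKM in WT_1000 (0.33 ± 0.06, edgeR adjusted p = 0.00123). Ribosomal protein genes took 23.0% and 22.4% of counts in Zld_1000, against at most 18.3% in WT_1000, and library sizes alone gave 1 member higher and 45 lower. Plasmatocyte markers fell in 8 of 10 and summed to 287 to 341 RPKM in Zld_1000, against 487 to 494 RPKM in WT_1000. Their part in the result was not tested.

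**Figure D4:**
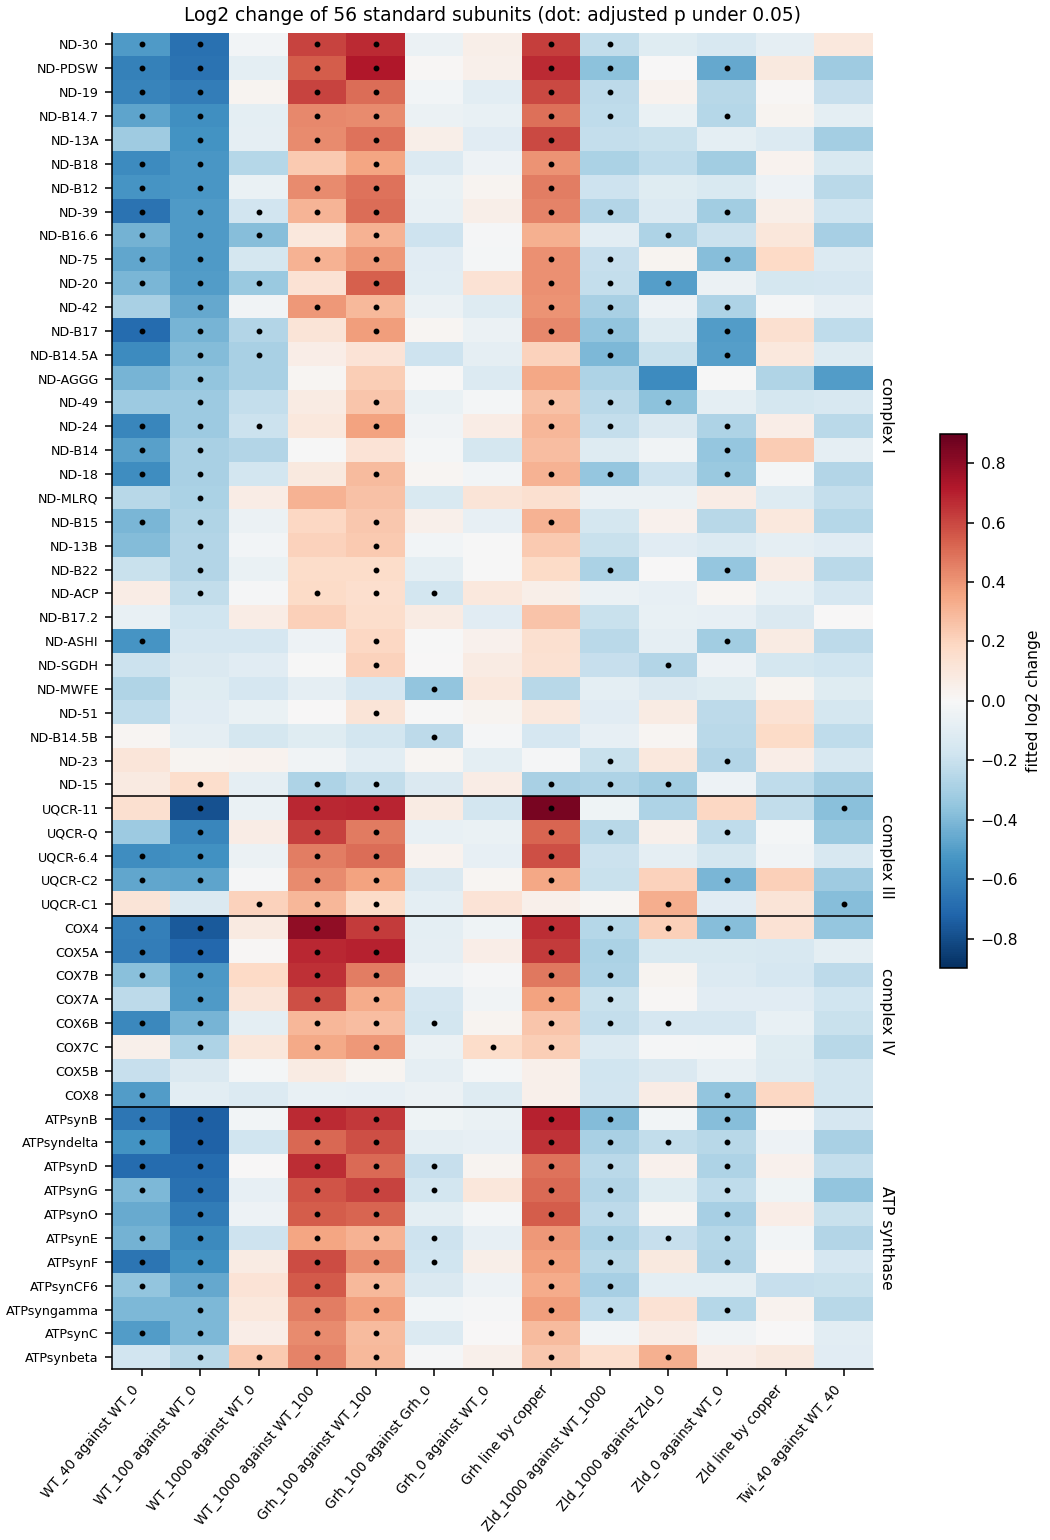
Fitted log2 change of the 56 measured standard subunits (rows, by complex) in 13 comparisons (columns), in blue for lower and red for higher, with a dot where the edgeR adjusted p is under 0.05. The columns for WT_40 and WT_100 against WT_0 are mostly blue, and those for Grh_100 against WT_100 and for the Grh line by copper mostly red.

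Induced Twi cells had the lowest mean sum, and 2 subunits passed the test. The series holds no untreated Twi line, so a difference of the line and its induction cannot be told apart. UQCR-C1 and UQCR-11, both in complex III, were lower in Twi_40 than in WT_40 and no standard subunit was higher, where 10.5% of all 8909 genes tested were called, 4.27% lower and 6.25% higher. The median was -0.20 against -0.002 over all genes. UQCR-C1 (dm6 chr3R:14890231-14892387) measured 154 and 162 RPKM in Twi_40, against 199 and 216 RPKM in WT_40 (-0.38 ± 0.08, edgeR adjusted p = 0.0244). UQCR-11 measured 49.2 and 47.0 RPKM in Twi_40, against 62.2 and 63.7 RPKM in WT_40 (-0.38 ± 0.07, edgeR adjusted p = 0.0165). The groups did not overlap for either gene.

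For other subunits the spread within each group was wide. COX5A measured 274 and 203 RPKM in Twi_40 and 287 and 222 RPKM in WT_40, and these values overlapped (-0.09 ± 0.17). Replicate 1 of COX5A was the higher in both groups. Over all genes tested, deviations of same-numbered libraries of these groups correlated at 0.481. With a replicate block, 7 members were called, 1 higher and 6 lower. COX4, at 99.6 and 90.6 RPKM in Twi_40 against 131 and 113 RPKM in WT_40, did not pass (-0.35 ± 0.09, edgeR adjusted p = 0.062). Without either library of Twi_40 no member was called, and without replicate 2 of WT_40 there were 8. One fit on all 18 libraries called 10, and with no filter on low counts there were 12. With WT_0 as the control, 2 members were higher and 45 of 60 lower in Twi_40. Of the plasmatocyte markers, 2 of 10 were higher and 4 lower, with a median of -0.92. The 2 higher, the collagen genes Col4a1 and vkg, measured 438 and 319 RPKM and 296 and 214 RPKM in Twi_40, against 114 and 74.0 RPKM and 66.7 and 40.6 RPKM in WT_40, and they make up most of the list's sum of 657 to 918 RPKM in Twi_40, against 226 to 366 RPKM in WT_40. Their part in the result was not tested.

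The testis-type paralogs were at or near the floor. Of the 21, 4 had 0 counts in all 18 libraries: ND-24L, ND-B14.5AL, COX5BL and COX6AL2. All exon bases of COX5BL are shared with Trmt6 on the opposite strand, which had 293 to 875 counts. COX6AL2 shares 67.0% of its exon bases with Ir75d and Prp6. The 0 counts of COX5BL therefore cannot be read as absence of expression, and those of COX6AL2 describe only its unshared exon bases. In all, 17 had at most 15 counts in every library, and COX4L, COX7CL, ATPsynepsilonL and COX7AL reached 18, 18, 20 and 80 counts. Those of complex I had at most 15 counts (ND-51L2), those of complex III at most 10 (UQCR-11L), and the remaining ATP synthase paralogs at most 15 (ATPsynbetaL). Of 23 spermatocyte and spermatid genes, 11 had at most 3 counts in every library. Others of that list were well above the floor, among them CycB3 (571 to 1239 counts), mia (292 to 894), topi (146 to 506) and twe (127 to 289). None of the paralogs lies on chromosome X, which holds 12 of the 59 standard subunits.

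COX7AL (dm6 chr3R:8343669-8344310), named for the complex IV subunit COX7A, was the one paralog over 20 counts. It had 41 and 35 counts in Zld_1000, against 8 and 10 in Zld_0, a log2 change of 1.96 ± 0.43 (edgeR adjusted p = 0.00306). Against the 30 and 17 counts of WT_1000 it did not pass (0.94 ± 0.36, edgeR adjusted p = 0.0597), nor did the test of a different copper response in the Zld line (0.92 ± 0.64, edgeR adjusted p = 0.408). In wild type it had 18 and 7 counts at 0, 62 and 70 at 40, 19 and 29 at 100, and 30 and 17 at 1000 µM, and WT_40 differed from WT_0 by 2.05 ± 0.46 (edgeR adjusted p = 0.0122), a call lost without replicate 2 of WT_0 (1.57). It had 10 and 7 counts in Grh_100, against 19 and 29 in WT_100 (-1.22 ± 0.43, edgeR adjusted p = 0.02), a call lost under DESeq2 and with any 1 of the 4 libraries left out. At 2.49 RPKM on average it stayed far under COX7A, at 162 RPKM. ATPsynepsilonL had 20 and 16 counts in Zld_1000, against 10 and 4 in WT_1000 (1.60 ± 0.47, edgeR adjusted p = 0.0192). That call was lost under DESeq2, without either Zld_1000 library and without replicate 2 of WT_1000 (1.07 to 1.63). Against the 6 and 11 counts of Zld_0 it did not pass (0.98 ± 0.46, edgeR adjusted p = 0.106). It had 18 and 17 counts in Twi_40, against 7 and 2 in WT_40, where it did not pass (2.14 ± 0.55, edgeR adjusted p = 0.0535).

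**Figure D5:**
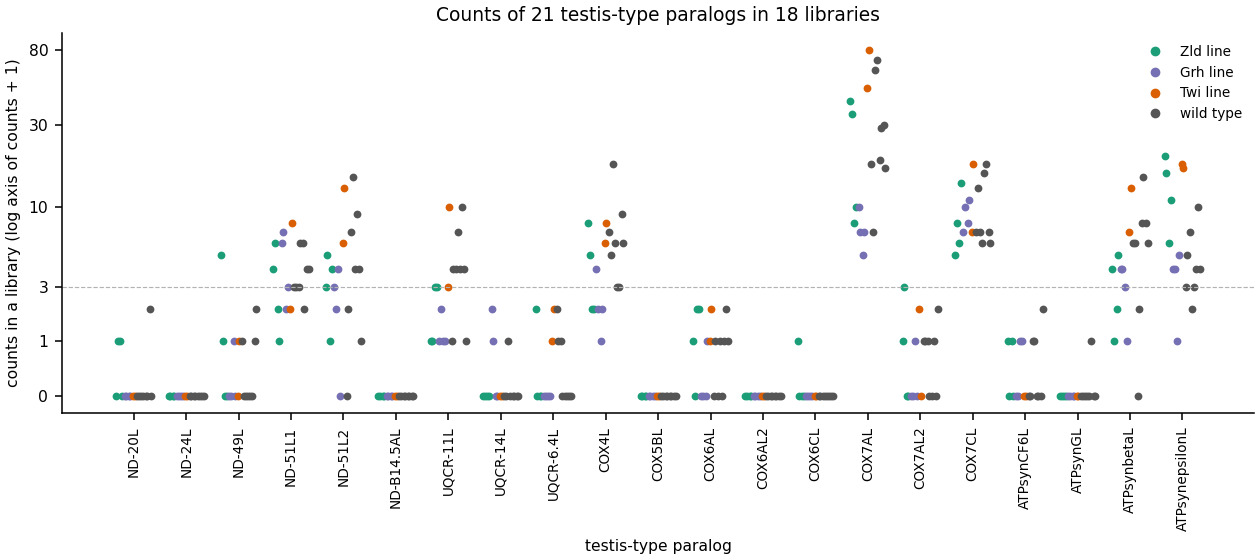
Counts of each of the 21 testis-type paralogs (x axis) in each of 18 libraries (points; y axis on a log scale of counts + 1), with the dashed line at 3 counts. COX7AL reaches 80 counts and the others at most 20.

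A complex III paralog with another symbol was more abundant. Cyt-c1L, related to cytochrome c1, had 679 and 789 counts (26.9 and 25.5 RPKM) in Twi_40, against 267 and 237 counts (7.22 and 9.04 RPKM) in WT_40, a log2 change of 1.70 ± 0.17 (edgeR adjusted p = 0.00124). It had 47 and 65 counts in WT_100, against 17 and 27 in WT_0 (1.25 ± 0.29, edgeR adjusted p = 0.00159), and WT_40 exceeded WT_0 by 3.13 ± 0.24 (edgeR adjusted p = 0.000199). The standard gene Cyt-c1 measured 134 and 122 RPKM in Twi_40 and 152 and 144 RPKM in WT_40. With no untreated Twi line, the line and its induction cannot be told apart in these Twi_40 values.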

How the data were processed

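The deposited values were raw counts per gene, with a gene length, in 3 tables of one transcription factor each. The authors counted reads with Subread 2.0 after alignment with HISAT2 2.1.0 to dm6, per the submitters' processing notes, which also name DESeq2. The annotation release and strand setting are not given in the sources used here. The kit is not stranded, so reads of overlapping genes cannot be told apart. Symbols came from the BDGP6.54 annotation through the gene ID and matched 17561 of 17609 genes.

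Each table was fitted in edgeR 4.0.16 (R 4.3.3) with the robust quasi-likelihood F test, after filterByExpr and TMM scaling, with all its libraries and no covariate. Benjamini-Hochberg adjusted p-values cover all genes tested, and a call needs an adjusted p under 0.05. The SE is the log2 change divided by the square root of F. Levels are RPKM from the deposited counts and lengths on TMM-scaled sizes over 18 libraries. The fits were tested on simulated data. The floors cover counting error only, whereas the SE also holds the fitted spread between libraries.

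The members and lists were chosen with earlier results of these data known. Named genes are the 5 called subunits with the largest rise and fall per comparison, the 2 highest and lowest per complex, 16 core subunits, every paralog, and 2 called genes per list. Other genes, among them ND-ASHI, UQCR-Q, ND-AGGG, COX7A and COX8, were named after their values were seen. ND-MNLL is counted as a standard subunit although its symbol ends in L. Alternatives were DESeq2 1.42.0, its size factors in edgeR, no filter, all 18 libraries, 6 libraries without untreated wild type, a replicate block and single libraries left out. The WT_1000 against WT_100 comparison, untreated wild type as the control and library sizes alone were added after seeing the data.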

Additional observations from a re-analysis of the deposited data

Results flagged for a closer look

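The copper response differed between the Grh line and wild type in edgeR's test of that difference for 38 members, 37 with a positive and 1 with a negative value. Of all genes tested, 43.3% were called. Copper also induces Grh in that line, so copper and induction cannot be told apart. The median log2 change over members was -0.06 for Grh_100 against Grh_0 and -0.42 for WT_100 against WT_0. Groups of 2 libraries were too small to look for single outlying libraries. Among the core subunits, the log2 difference was 0.67 for COX4, 0.63 for COX5A, 0.62 for ND-30, 0.41 for ND-75, 0.41 for ND-20, 0.38 for ATPsyngamma, 0.34 for UQCR-C2, 0.30 for ND-24, 0.28 for ATPsynC, 0.26 for ND-49, 0.25 for COX6B and 0.24 for ATPsynbeta.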

How the results depend on the processing

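Counts of members called moved by over 1.5 times under these settings. In one fit on all 18 libraries there were 16 for Zld_1000 against WT_1000, 11 for Zld_0 against WT_0, 3 for WT_1000 against WT_0, 31 for Grh_100 against WT_100, 3 for Grh_100 against Grh_0, 0 for Grh_0 against WT_0, 18 for the Grh line by copper and 10 for Twi_40 against WT_40. DESeq2 gave 16 for Zld_0 against WT_0, 4 for WT_1000 against WT_0, 2 for Grh_100 against Grh_0 and 0 for Grh_0 against WT_0. No filter gave 2 for Grh_0 against WT_0 and 12 for Twi_40 against WT_40. The replicate block gave 4 for Grh_100 against Grh_0, 0 for Grh_0 against WT_0 and 7 for Twi_40 against WT_40. Between groups of a table, deviations of same-numbered libraries from their group mean correlated at -0.289 (Grh_100 with Grh_0) to 0.481 (Twi_40 with WT_40). Whether same-numbered libraries share a batch or culture is not given in the labels. With untreated wild type as the control there were 10 for Grh_100 and 47 for Twi_40, and with library sizes alone 13 for Grh_0 against WT_0. The cause was not tested.

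With single libraries left out, members called ranged from 10 to 26 for Zld_1000 against WT_1000, 6 to 21 for Zld_1000 against Zld_0, 9 to 36 for Zld_0 against WT_0, 1 to 3 for WT_1000 against WT_0, 0 to 6 for the Zld line by copper, 38 to 45 for Grh_100 against WT_100, 4 to 16 for Grh_100 against Grh_0, 0 to 2 for Grh_0 against WT_0, 40 to 46 for WT_100 against WT_0, 31 to 39 for the Grh line by copper, 0 to 8 for Twi_40 against WT_40, 5 to 43 for WT_40 against WT_0 and 25 to 31 for WT_1000 against WT_100. Where 1 library remained in a group, it was assumed to vary like the others.

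Against untreated wild type, the sign turned for Grh_100 in COX5A (-0.0185), UQCR-11 (-0.0924), ND-30 (-0.0007), ATPsynB (-0.10), ND-75 (-0.12), ND-49 (-0.0785), UQCR-C2 (-0.11), COX4 (-0.13), COX6B (-0.14), ATPsyngamma (-0.033), ATPsynC (-0.12), Mdh2 (-0.0388), Myc (0.55), levy (-0.19), cype (-0.0945), Scox (-0.11), SdhC (-0.0624), Tom40 (-0.0613) and RFeSP (-0.13), for Twi_40 in Pfk (1.80) and Cyt-c-p (0.27), and for Zld_1000 in topi (0.46). With library sizes alone it turned for ND-51 in Grh_100 against WT_100 (-0.0406). Depth limits the paralogs, most of which had too few counts to test.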
